A study of Homo sapiens with 4 samples.

Results

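HDGFL2, EPB41L4A, UBASH3B and SEPTIN11 are 4 genes of induced human neurons, described here through 1 unannotated internal exon in each, an exon that lies between annotated exons of its gene and overlaps none of them. They were chosen by measured values of these libraries: the share of transcripts holding the exon was higher with TDP-43 knockdown, both without and with 5-azacytidine. Values of the knockdown against its control are therefore given as a description, with no test. The deposited annotation held 911 such loci in 703 annotated genes, and the 4 genes account for 4 of them. Of the 911 loci, 95 in 91 genes had at least 10 reads holding the exon over the libraries and a mean of at least 10 reads that either held it or skipped it, and all 4 loci met these minimums.

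RNA came from cortical neurons made from a derivative of KOLF2.1J, a widely used human line of induced pluripotent stem cells, with NGN2, a neurogenic transcription factor, switched on by doxycycline at 2 µg/mL. All 4 groups carried the same constitutive CRISPR interference construct, dCas9 fused to BFP and the KRAB repressor domain, and came from stable pools of cells transduced with lentivirus and selected with puromycin. The control group had a non-targeting guide RNA and no 5-azacytidine, the knockdown group a guide RNA against TDP-43 and no 5-azacytidine, the azacytidine group the non-targeting guide RNA and 5 µM of the drug for 72 hours, and the group with both treatments the TDP-43 guide RNA and the same drug. Cultures were harvested on day 12 or day 15, and which day applied to these libraries is not given in the sources used here. Each group had 1 PacBio long-read library, so no difference has a replicate check, and each test below compares the reads of 2 libraries, not the conditions.

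TDP-43, the protein of the gene TARDBP, is a nuclear RNA-binding protein that binds UG-rich stretches in introns and keeps the splicing machinery from using exon-like sequences there. When TDP-43 is lost, such sequences are spliced into messenger RNA as cryptic exons, which either keep the reading frame and add amino acids or shift it and bring in a stop codon. Loss of nuclear TDP-43 in neurons is a hallmark of amyotrophic lateral sclerosis and frontotemporal dementia. 5-Azacytidine is a cytidine analog that is built into nucleic acids and inhibits DNA methylation.

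TARDBP had 104 reads in the control library, 72 in the knockdown library, 73 in the azacytidine library and 43 in the library with both treatments. The log2 ratio of its level was -0.67 with the knockdown alone (95% interval -1.13 to -0.23) and -0.73 with the knockdown in azacytidine (-1.31 to -0.17), so the targeted gene was lower in both libraries labelled as knockdown and was still detected there. Gene reads per library ran from 466337 to 767621 and reads assigned to transcripts from 288441 to 448742. The 10 neuronal markers examined were all detected in every library, with summed levels of 2119 to 2940 CPM (gene reads scaled to effective library size). The pluripotency markers POU5F1 and NANOG had 0 to 2 reads, while LIN28A, an RNA-binding protein of stem and early neural cells, had 99 to 200. Of the same list, DPPA4 had 48 reads in the control, 40 in the knockdown, 6 in the azacytidine and 10 in the both library. SOX2, also among the progenitor markers below, had 30, 35, 18 and 8 in that order, and ZFP42 had 1 to 4. Markers of dividing and progenitor cells summed to 1128 and 1084 CPM in the control and knockdown libraries and to 172 and 136 in the libraries with azacytidine. MKI67, a proliferation marker, had 142 reads in the control, 154 in the knockdown, 2 in the azacytidine and 1 in the both library, and PAX6, a neural progenitor factor, had 290, 313, 3 and 4 in that order, whereas NES, an intermediate filament of the same list, had 64, 53, 36 and 42. In bulk RNA, fewer cells of a type and less RNA per cell cannot be told apart. Astrocyte markers summed to 2.02 and 0 CPM with azacytidine and 50.0 and 48.2 without it, oligodendrocyte markers to between 51.6 and 108, and microglial markers to at most 7.30.

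The exons are placed by the annotated junctions they interrupt, shown here because each cryptic exon falls exactly between the lower-case and the capital letters. Lower case is the last part of the annotated upstream exon and capitals are the first part of the annotated downstream exon, 5′ to 3′ on the strand of the gene, from GENCODE 29 transcripts on hg38. The SEPTIN11 line ends at its annotated stop codon.
HDGFL2, upstream chr19:4491791-4491835, downstream chr19:4493703-4493747, plus strand: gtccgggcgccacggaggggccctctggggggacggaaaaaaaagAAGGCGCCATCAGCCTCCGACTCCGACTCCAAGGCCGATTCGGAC
EPB41L4A, upstream chr5:112275326-112275370, downstream chr5:112266286-112266330, minus strand: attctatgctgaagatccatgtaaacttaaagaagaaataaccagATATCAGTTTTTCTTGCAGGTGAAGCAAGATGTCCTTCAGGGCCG
UBASH3B, upstream chr11:122656166-122656210, downstream chr11:122776219-122776263, plus strand: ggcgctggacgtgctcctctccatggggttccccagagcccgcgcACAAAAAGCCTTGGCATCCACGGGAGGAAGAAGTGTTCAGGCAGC
SEPTIN11, upstream chr4:77030926-77030970, downstream chr4:77034497-77034512, plus strand: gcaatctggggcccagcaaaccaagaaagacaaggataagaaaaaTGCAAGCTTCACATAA

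All 4 exons had the same form. In each gene a single unannotated transcript held the exon, with 1 pair of exon boundaries, and removing the exon gave the exact exon chain of an annotated transcript. Each exon therefore added 2 junctions absent from the annotation and used annotated splice sites on its neighbours. No annotated transcript on either strand overlapped any of the exons, either in the extended annotation or in GENCODE 29. Such single insertions made up 66 of the other 91 loci with the minimum reads (72.5%) and 211 of all 911 internal loci (23.2%), so the form is shared with most of the well-supported loci.

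HDGFL2 encodes a PWWP-domain chromatin reader of the hepatoma-derived growth factor family. Its gene (ENSG00000167674.15) lies on the plus strand of chromosome 19, and the unannotated exon spans 4492015 to 4492152, which is 138 bases. It is exon 7 of 17 in its transcript and lies in an intron of 1867 bases, 179 bases after the upstream exon and 1550 bases before the downstream one. Its length is a multiple of 3 and it enters the coding sequence between whole codons, after 678 of 2013 coding bases (33.7%). It would add 46 codons, from 671 to 717 before the stop, if it holds no stop codon of its own; the bases of the cryptic exons were not read here.

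EPB41L4A encodes a FERM-domain protein of the band 4.1 family, whose members link membrane proteins to the cytoskeleton. Its gene (ENSG00000129595.14) lies on the minus strand of chromosome 5, and the exon spans 112267210 to 112267284, which is 75 bases. It is exon 5 of 24 and lies in an intron of 8995 bases, 8041 bases after the upstream exon and 879 before the downstream one. This length is also a multiple of 3, and the exon enters after 335 of 2058 coding bases (16.3%), 2 bases into a codon. It would add 25 codons to the 686 of the annotated frame under the same condition.

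UBASH3B encodes a phosphatase with a ubiquitin-associated domain and an SH3 domain that acts on signalling downstream of tyrosine kinases. Its gene (ENSG00000154127.10) lies on the plus strand of chromosome 11, and the exon spans 122744155 to 122744189, only 35 bases. It is exon 2 of 15 and sits in the long first intron, 120008 bases, 87944 bases after the upstream exon and 32029 before the downstream one. Dividing its length by 3 leaves 2, so it shifts the frame, and it does so early, after 161 of 1947 coding bases (8.27%). Read in the shifted frame, the annotated downstream exons reach a stop codon after 140 bases. That stretch is printed as the part in which the shifted frame ends if the exon itself and its junctions hold no earlier stop, with the stop codon in capitals.
UBASH3B, GENCODE 29 downstream exons from chr11:122776219 on, plus strand: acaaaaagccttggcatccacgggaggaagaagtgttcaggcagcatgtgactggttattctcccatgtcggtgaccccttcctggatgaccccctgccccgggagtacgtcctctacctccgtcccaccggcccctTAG
Under that condition the open reading frame would hold 111 codons, against 649 in the annotated frame, and the stop would lie 1511 bases before the last junction with 11 junctions after it. As background, a stop codon well upstream of the last junction is the usual trigger of nonsense-mediated decay.

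SEPTIN11 encodes a GTP-binding septin, a cytoskeletal protein that assembles into filaments. Its gene (ENSG00000138758.12) lies on the plus strand of chromosome 4, and the exon spans 77032457 to 77032553, which is 97 bases. It is exon 10 of 11 and lies in the last intron, 3526 bases, 1486 bases after the upstream exon and 1943 before the last exon. Its length leaves 1 when divided by 3, but only the end of the protein is affected, since 1274 of 1287 coding bases (99.0%) come before it. The annotated stop codon ends 16 bases into the last exon, and in the shifted frame the first stop of the last exon, TAA, ends 153 bases into it. That stop is after the last junction. If the exon holds no stop codon of its own, the frame would hold 507 codons against 429.

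**Figure D1:**
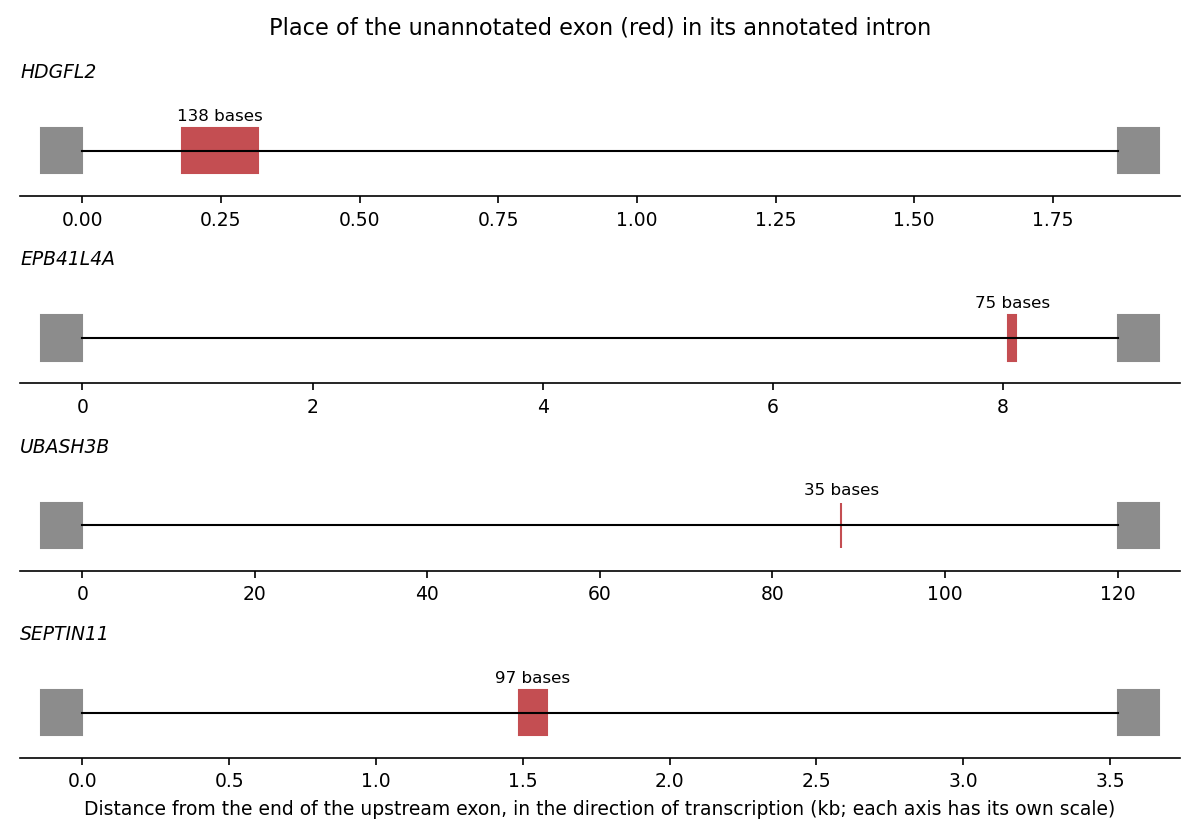
Place of the unannotated exon in its annotated intron for the 4 genes, in the direction of transcription, with distance from the end of the upstream exon on the horizontal axis. The exon is near the upstream exon in HDGFL2 (179 bases of 1867), near the downstream exon in EPB41L4A (879 bases of 8995) and in neither position in UBASH3B and SEPTIN11; flanking exons are not to scale.

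The lengths of the 4 exons, 35, 75, 97 and 138 bases, can be set beside those of the other loci. The 91 other loci with the minimum reads had a median of 105 bases, and 47.3% of them were a multiple of 3 in length. Wholly coding internal exons of GENCODE 29, 171325 of them, had a median of 121 bases, and 41.0% were a multiple of 3. Among the 4, 2 were a multiple of 3, and the UBASH3B and EPB41L4A exons were below the lower quartile of the loci with the minimum reads (83.5 bases). Host introns of the 95 loci had a median of 7994 bases, so the introns of HDGFL2 and SEPTIN11 were shorter than this and those of EPB41L4A and UBASH3B longer.

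Inclusion was the share of reads that held the exon among the reads of transcripts that held it or whose intron spanned it. In HDGFL2 the exon was in 0 of 21 reads in the control library, 8 of 20 in the knockdown library, 0 of 28 in the azacytidine library and 13 of 28 in the library with both treatments. Both libraries with the knockdown held the exon, at 40.0% (exact 95% interval 19.1 to 64.0) and 46.4% (27.5 to 66.1). Taking 3 reads as the limit, the counts of 0 allow up to 14.3% in the control library and 10.7% with azacytidine alone. The difference was 40.0 percentage points without azacytidine (Newcombe interval 16.2 to 61.3) and 46.4 points with it (25.7 to 64.2). These intervals and limits cover counting error only, since amplified reads are not independent molecules.

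In EPB41L4A the exon was in 0 of 24 control reads, 23 of 39 knockdown reads, 0 of 39 azacytidine reads and 19 of 26 reads with both treatments. Inclusion was thus 59.0% (42.1 to 74.4) and 73.1% (52.2 to 88.4) with the knockdown, the highest of the 4 exons in both libraries by the point estimates, and the counts of 0 allow up to 12.5% and 7.69% without it. The differences were 59.0 points (38.2 to 72.9) and 73.1 points (51.9 to 86.3).

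In UBASH3B the exon was in 0 of 33 control reads, 12 of 48 knockdown reads, 0 of 31 azacytidine reads and 14 of 25 reads with both treatments. Inclusion was 25% (13.6 to 39.6) in the knockdown library and 56.0% (34.9 to 75.6) with both treatments, and the limits without the knockdown were 9.09% and 9.68%. The differences were 25 points (10.5 to 38.8) and 56.0 points (34.1 to 73.3).

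In SEPTIN11, the most deeply read of the 4 genes, the exon was in 2 of 144 control reads, 34 of 214 knockdown reads, 0 of 107 azacytidine reads and 39 of 96 reads with both treatments. It was the only one of the 4 exons seen without the knockdown, at 1.39% in the control library (0.17 to 4.93), while the count of 0 in the azacytidine library allows up to 2.80%. Inclusion was 15.9% (11.3 to 21.5) with the knockdown and 40.6% (30.7 to 51.1) with both treatments, so the differences were 14.5 points (8.94 to 20.1) and 40.6 points (30.7 to 50.6). In the knockdown library alone, 35.7 estimated reads (33 of them assigned to no other transcript) were given to ENST00000505788.5, whose intron also spans the exon but joins another downstream exon. When these were left out and only the junction of the 2 neighbouring exons was counted as skipping, a choice made after seeing the data, the difference without azacytidine was 17.7 points. ENST00000505788.5 had 0 full-length reads in every library. ENST00000515671.1, which lies downstream of the exon and neither holds nor spans it, had the opposite pattern. Its estimated reads were 16 in the control, 0 in the knockdown, 20 in the azacytidine and 17 in the both library. Whether reads were assigned to one in place of the other was not tested.

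**Figure D2:**
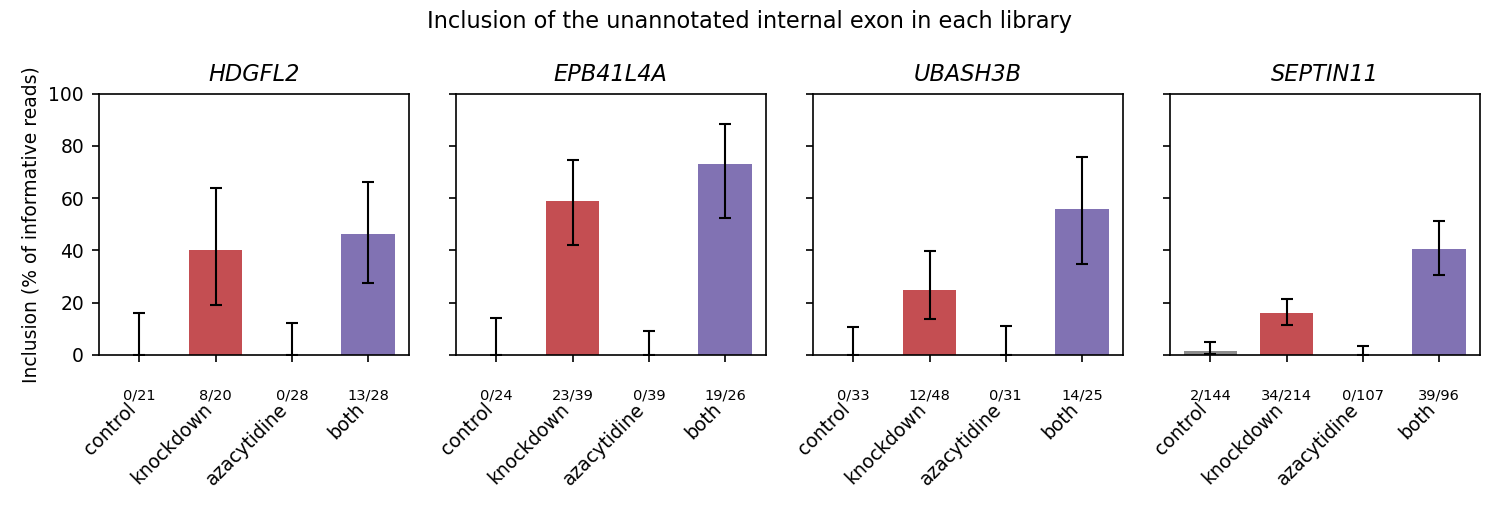
Inclusion of the unannotated exon (percent of reads that hold or span it, vertical axis) in each library, 1 panel per gene. Each bar is a single library and error bars are exact 95% binomial intervals. The exon is at or near 0 in the libraries without the knockdown and between 15.9% and 73.1% in those with it.

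Ordered by inclusion in the knockdown library, the exons ran from EPB41L4A through HDGFL2 and UBASH3B to SEPTIN11, and the binomial intervals of each neighbouring pair in that order overlapped. In the library with both treatments the order was EPB41L4A, UBASH3B, HDGFL2 and SEPTIN11, again with overlap between neighbours. Reads of 1 library are shared by the genes, so each order rests on a single library.

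The abundance of each form was also followed in CPM of effective library size. Transcripts with the HDGFL2 exon stood at 0, 12.4, 0 and 27.5 CPM in the control, knockdown, azacytidine and both libraries, and transcripts that skipped it at 33.9, 16.8, 56.1 and 30.3. The skipping form was therefore lower in each knockdown library than in its own control. EPB41L4A moved in the same way, with 0, 33.2, 0 and 39.7 for the exon and 38.7, 23.8, 78.9 and 13.9 for skipping. UBASH3B had 0, 17.5, 0 and 28.7 with the exon and 53.2, 52.5, 62.7 and 22.9 without it, so its skipping form was nearly level without azacytidine. SEPTIN11 had 3.54, 50.1, 0 and 81.4 with the exon and 230, 263, 216 and 118 without it. The rise in skipping from 230 to 263 came with the reads assigned to ENST00000505788.5. The junction of the neighbouring exons alone stood at 230 CPM in the control, 211 under knockdown, 216 under azacytidine and 118 under the combination.

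**Figure D3:**
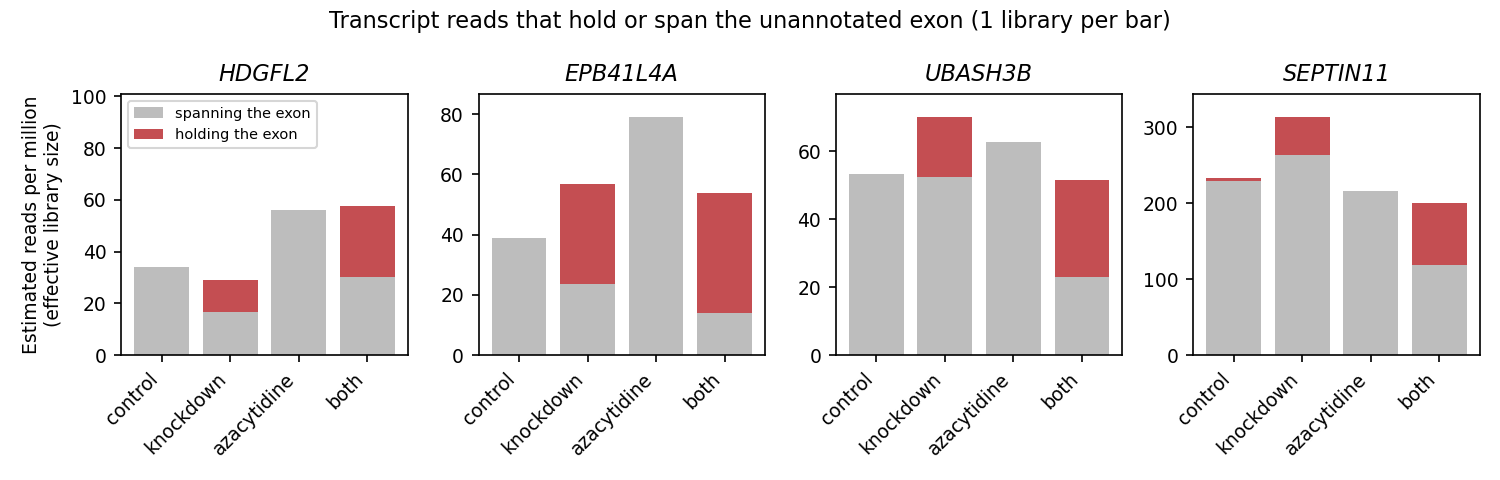
Estimated reads, in CPM of effective library size, that hold (red) or span (grey) the unannotated exon, stacked, 1 bar per library and 1 panel per gene with its own vertical axis. Red is largest in the library with both treatments in each gene, 39.7 CPM in EPB41L4A and 81.4 in SEPTIN11, and among the libraries without the knockdown it appears in the SEPTIN11 control (3.54).

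Support was read from the tables of full-length and uniquely assigned reads, since the estimates share out a read over all the transcripts it matches. Over the 4 libraries, 3 full-length reads held the HDGFL2 exon, 7 the EPB41L4A exon, 7 the UBASH3B exon and 14 the SEPTIN11 exon. Uniquely assigned reads numbered 17, 15, 8 and 38 in the same order. Full-length reads were 13.8%, 16.7%, 27.0% and 18.4% of the estimated reads with the exon, and 8.91%, 29.1%, 26.1% and 19.5% of those that skipped it. In these pooled shares the forms were close in UBASH3B and SEPTIN11. The form with the exon had the lower share in EPB41L4A and the higher one in HDGFL2. Reads with the exon came almost only from the libraries with the knockdown and skipping reads from all 4, so the pooled shares mix form and library.

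By library, full-length reads holding the exon were 0, 2, 0 and 1 in HDGFL2, 0, 3, 0 and 4 in EPB41L4A, 0, 3, 0 and 4 in UBASH3B and 1, 4, 0 and 9 in SEPTIN11, in the order control, knockdown, azacytidine and both. Full-length reads skipping it were 1, 1, 2 and 3 in HDGFL2, 4, 4, 14 and 3 in EPB41L4A, 9, 9, 7 and 4 in UBASH3B and 31, 25, 22 and 17 in SEPTIN11. Each knockdown library held at least 1 full-length read with the exon in each gene, and among the libraries without the knockdown the control library held 1, in SEPTIN11. HDGFL2 rests on the thinnest full-length support: from full-length reads alone its differences were 66.7 points without azacytidine and 25 points with it.

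The transcripts that the exons interrupt were also read. In HDGFL2 the skipping reads were divided mainly between ENST00000621835.4, with 18.5, 5.75, 13.3 and 0 estimated reads, and ENST00000616600.5, with 2.54, 5.75, 13.3 and 12.5. Neither had a uniquely assigned read in any library, so their split is uncertain, and unique reads were 78.0% of the reads with the exon but 4.01% of those without it. From unique reads alone the difference in the pair with azacytidine was 83.3 points. In EPB41L4A, ENST00000261486.6 had 21.4, 8.63, 34.2 and 2.41 reads, while BambuTx4460, an unannotated transcript that skips the exon, had 2.60, 4.65, 4.83 and 4.34. In UBASH3B the skipping reads all came from ENST00000284273.6, with 33, 36.0, 31 and 11.1 reads. In SEPTIN11, ENST00000264893.11 had 140, 143, 107 and 57.4 reads.

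Against the annotated transcript of the same exon chain in the deposited annotation, the transcripts with the exon began 400 bases further upstream in HDGFL2, 1032 in EPB41L4A, 83 in UBASH3B and 2 in SEPTIN11. Their 3′ ends lay within 7 bases of the annotated ends in all 4 genes. In EPB41L4A, BambuTx4460, which skips the exon, also began upstream of the annotated transcript. On the minus strand it began at 112420156, the transcript with the exon at 112420309 and the annotated one at 112419277. An upstream start was thus not particular to the form with the exon there. The first bases of single reads were not analysed here.

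The 4 exons were set beside the other internal loci. With the knockdown alone 29 of 95 loci were higher in inclusion by at least 10 points (30.5%), and within azacytidine 32 of 94 were (34%). All 4 exons are past 10 points in both pairs, which the choice of the genes fixes. Of 94 loci with a value in both pairs, 16, the 4 exons included, were higher by at least 10 points in both and 2 were lower in both. Among tested loci, 9 had 0 reads in both libraries without the knockdown and reads in both with it, and 0 had the opposite pattern. HDGFL2, EPB41L4A and UBASH3B, chosen on these values, are among the 9. Over all 911 loci, with the thinly read ones included, these counts were 46 and 33.

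Ranked by the smaller of the knockdown differences, EPB41L4A (59.0 points) and HDGFL2 (40.0) came first, UBASH3B (25) had rank 5 and SEPTIN11 (14.5) rank 10. The 5 highest-ranked other genes on this measure, over 4 libraries, were GPSM2, SHQ1, NADK2, CSNK1G2 and LHFPL4. GPSM2, an organiser of mitotic spindle orientation, had its exon (chromosome 1, 108896317 to 108896431) in 0 of 26 control reads, 11 of 42 knockdown reads, 0 of 10 azacytidine reads and 5 of 14 reads with both treatments. SHQ1, an assembly factor of H/ACA ribonucleoproteins, had 0 of 27, 7 of 28, 0 of 11 and 4 of 14. NADK2, the mitochondrial NAD kinase, had 0 of 41, 6 of 29, 0 of 33 and 4 of 18. These 3 loci were at 0 without the knockdown, like HDGFL2, EPB41L4A and UBASH3B. CSNK1G2, a casein kinase, had 3 of 14, 5 of 12, 0 of 12 and 7 of 16, and LHFPL4, a partner of GABA-A receptors, had 3 of 16, 9 of 24, 6 of 28 and 17 of 41, so both held their exons in a library without the knockdown.

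**Figure D4:**
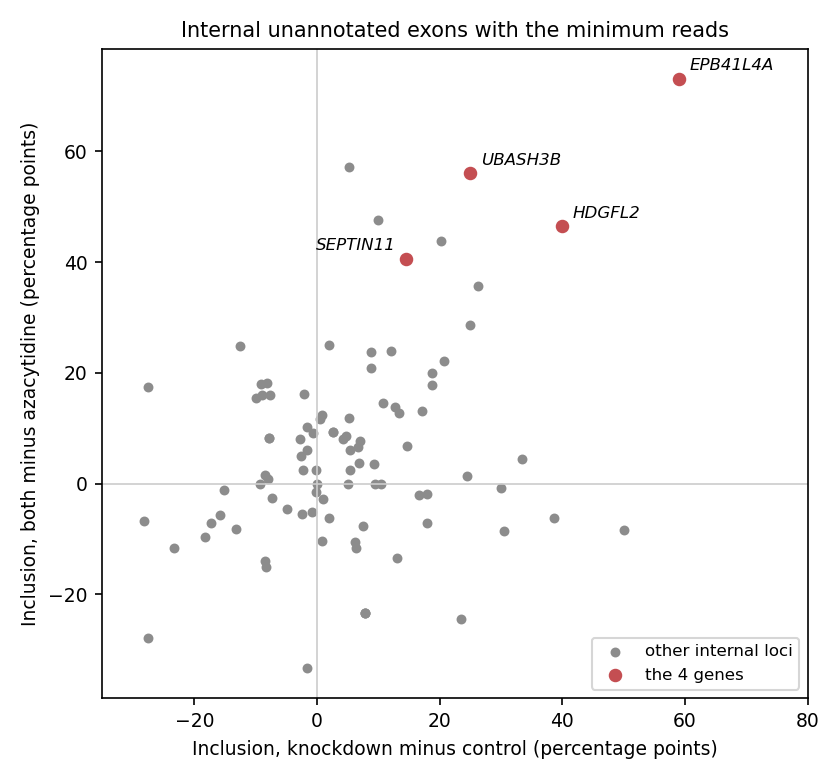
Difference in inclusion with the knockdown without azacytidine (horizontal axis, percentage points) and with it (vertical axis), for the 94 internal loci with a value in both pairs. The 4 genes, chosen on these values, are in red, and 16 loci lie past 10 points on both axes.

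A list of 40 genes with splicing known to be repressed by TDP-43 was read in the same way. Of these, 6 held an internal unannotated locus: HDGFL2, EPB41L4A, GPSM2, AARS1, ACTL6B and PRELID3A, the first 4 with the minimum reads. AARS1, the alanyl-tRNA synthetase, had its exon (chromosome 16, 70272796 to 70272882) in 0 of 56, 12 of 70, 0 of 60 and 13 of 99 reads. ACTL6B, a neuronal chromatin remodelling subunit, had 0 of 5, 4 of 5, 1 of 17 and 6 of 10 reads, below the minimum. PRELID3A, also below it, had 2 of 4 reads in the control library and 0 of 1, 0 of 1 and 0 of 2 in the others, so its exon was seen in the control library alone. Of 23 paralogs of the 4 genes (the septins, the band 4.1 proteins, the HDGF family and UBASH3A), 0 held such a locus. That count stands beside the same 703 of 77973 genes.

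Whether inclusion differed with azacytidine was tested. The choice of genes used the knockdown contrasts, but it rested on the same 4 libraries, so the azacytidine values are not independent of it. Holding and skipping reads of a locus entered Fisher's exact test, two-sided, with Benjamini-Hochberg adjustment over the loci, and a call needed an adjusted p under 0.05 and a difference of at least 10 points. Without the knockdown 1 of 95 loci was called (1.05%), MAP7D2, and none of the 4 exons was. HDGFL2, EPB41L4A and UBASH3B had 0 reads with the exon in both of these libraries, so this pair could show no difference in them. Within the knockdown 5 of 94 loci were called (5.32%), all higher with azacytidine: ELMO2, ZNF423, SEPTIN11, NUS1 and ENSG00000278730. An unadjusted p under 0.05 was found for 11 loci in the first pair and 17 in the second, and the called genes other than SEPTIN11 are named after their values were seen.

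SEPTIN11 inclusion rose by 24.7 points (14 to 35.6) from the knockdown library to the library with both treatments (Fisher's exact test, adjusted p = 0.000235). UBASH3B differed by 31.0 points (7.58 to 51.1) in the same direction, but did not pass after adjustment (exact p = 0.0112, adjusted p = 0.0890). EPB41L4A differed by 14.1 points (-9.60 to 34.5, adjusted exact p = 0.710) and HDGFL2 by 6.43 points (-20.8 to 31.8, adjusted exact p = 1). By estimated reads all 4 were higher with both treatments than with the knockdown alone. For HDGFL2 the direction turned in full-length reads (2 of 3 with the knockdown, 1 of 4 with both treatments) and in unique reads (7 of 7 and 10 of 12), and in HDGFL2 and EPB41L4A the interval reached from a fall to a rise. Against effective library size, the transcripts holding the exon were higher by 1.17 (HDGFL2), 0.23 (EPB41L4A), 0.71 (UBASH3B) and 0.69 (SEPTIN11) on the log2 scale.

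For SEPTIN11 the call ended when full-length reads alone were used (20.8 points, adjusted exact p = 0.668). Over the other alternatives adjusted exact p ran from 0.000177 to 0.0131, the latter with all transcript reads of the gene as denominator (18.3 points). Counts as deposited, where each read counts as 2, gave 3.65e-09 and are left out of that range. The 214 informative knockdown reads include those of ENST00000505788.5. On the junction of the neighbouring exons, 34 reads held and 144 skipped the exon with the knockdown, against 39 and 57 with both treatments. That contrast was not tested. The dividing and progenitor markers given above differed between the same libraries, at 1084 and 136 CPM. TARDBP stood at 105 and 88.7 CPM, a log2 ratio of -0.24 (-0.82 to 0.32, exact binomial adjusted p = 0.526). The part of either in the SEPTIN11 difference was not tested.

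The level of each gene was measured over all its reads and scaled to effective library size, as a log2 ratio with a pseudocount of 0.5. With the knockdown alone 9.12% of the 8145 genes tested (20 or more reads on average) were past a log2 ratio of 1 in either direction, and within azacytidine 12.6% were, and 0 of the 4 genes were in either pair. The median ratio over all these genes was 0.18 and 0.05, so the values below can be read against those shifts.

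HDGFL2 had 31 reads in the control library, 29 in the knockdown library, 35 in the azacytidine library and 37 with both treatments. Its log2 ratio with the knockdown was -0.24 (-1.02 to 0.54) without azacytidine and 0.11 (-0.60 to 0.82) with it, both intervals holding 0. UBASH3B, whose exon shifts the frame early, had 40, 55, 31 and 32 reads. Its log2 ratio was 0.31 (-0.30 to 0.94) without azacytidine and 0.07 (-0.69 to 0.83) with it, again with 0 inside both intervals.

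EPB41L4A had 36, 63, 64 and 45 reads, so the control library was lowest. Its log2 ratio with the knockdown was 0.65 (0.05 to 1.30) without azacytidine and -0.48 (-1.06 to 0.09) with it. SEPTIN11 had 236, 281, 205 and 163 reads, with log2 ratios of 0.11 (-0.15 to 0.36) and -0.30 (-0.61 to 0.00). The small ratio without azacytidine changed sign, to -0.12, when libraries were scaled to total counts.

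**Figure D5:**
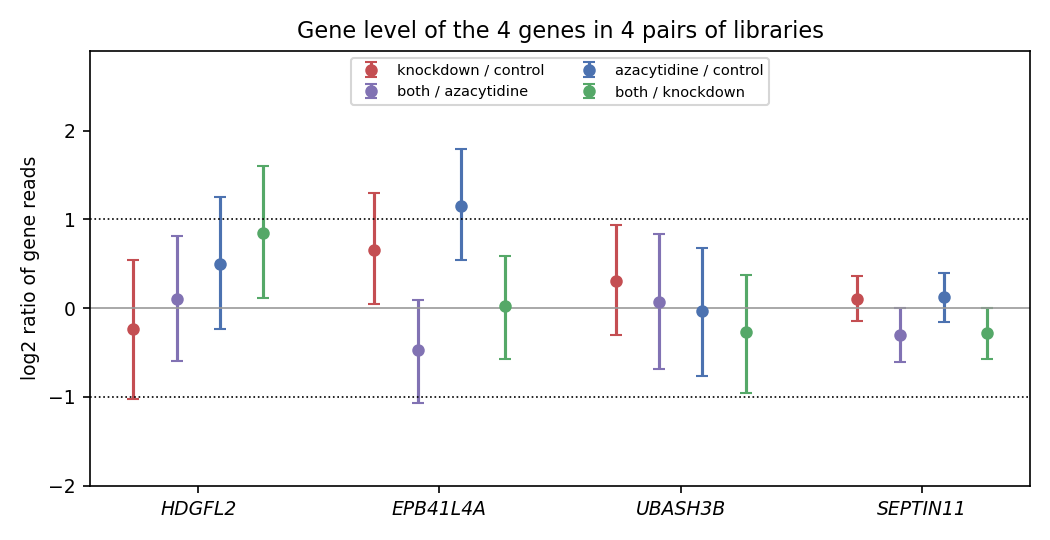
Gene level of the 4 genes, compared between libraries. The knockdown library is within a log2 ratio of 1 of the control in all 4 genes. The log2 ratio of EPB41L4A in the azacytidine library against the control is 1.15. In CPM of effective library size, EPB41L4A has its lowest level, 58.1, in the control and its highest, 130, with azacytidine.

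With azacytidine, tested by a two-sided exact binomial test adjusted over the 8145 genes, 16.6% of genes were called without the knockdown and 26.4% with it, and of the 4 genes 1 was called without it and 0 with it. EPB41L4A was higher in the azacytidine library than in the control, with 130 against 58.1 CPM and a log2 ratio of 1.15 (0.55 to 1.79, adjusted exact p = 0.000958). Within the knockdown its log2 ratio was 0.02 (-0.57 to 0.59, adjusted exact p = 1). The call ended when the reads assigned to transcripts were summed in place of gene reads (0.89, adjusted exact p = 0.105), and an additive edgeR model over the 4 libraries gave 0.57 with an adjusted p of 0.327.

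HDGFL2 was 0.50 higher with azacytidine on the log2 scale (-0.24 to 1.25, adjusted exact p = 0.337) and, within the knockdown, 0.85 higher (0.11 to 1.60, adjusted exact p = 0.0427), which is under the fold needed for a call. Scaled to total counts the latter was 1.03 (adjusted exact p = 0.0145), past both thresholds. UBASH3B (-0.04 and -0.27) and SEPTIN11 (0.12 and -0.28) were not called, with adjusted exact p between 0.0993 and 1.

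The fixed lists gave the setting of these levels. Of the 40 TDP-43 splicing genes, 36 had enough reads, and 1 was past the fold upward and 0 downward with the knockdown alone, with a median log2 ratio of 0.15, against 1 and 4 within azacytidine (0.13). Over all genes 9.12% and 12.6% were past the fold, so the list's 1 and 5 of 36 were below and near that share. Named after their values were seen, these were TRRAP (1.16) upward with the knockdown alone, AGRN (1.45) upward within azacytidine, and STMN2 (-1.10), CELF5 (-3.79), GPSM2 (-1.03) and WASL (-1.31) downward within azacytidine. Among 18 tested paralogs, EPB41L2 (1.25) and EPB41L5 (1.54) were past the fold upward with the knockdown alone and SEPTIN9 (-1.02) downward within azacytidine, 2 and 1 of 18 beside the same 9.12% and 12.6%. Of the 9 tested factors of nonsense-mediated decay, SMG9 (1.12) was called with azacytidine without the knockdown and UPF3A (1.02) with it, by the exact binomial test, 1 of 9 in each pair beside 16.6% and 26.4% of all genes.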

How the data were processed

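The 4 genes, lists and settings were chosen with earlier results of these data known. PacBio Iso-Seq libraries, with first-strand synthesis by MarathonRT from about 300 ng of RNA per the labels, were aligned with minimap2 to hg38 and assigned to transcripts with Bambu, per the file headers; versions are not given in the sources used here. The deposited tables hold estimated counts per gene and per transcript, the estimated counts that came from full-length reads, and unique counts (reads given to 1 transcript). The deposited CPM values were used only to check their denominator, the sum of the gene table.

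Every deposited gene and unique count was even (0 odd values, within 0.00031), so counts were divided by 2 and rounded, and 2 deposited counts were taken as 1 read; why they are even is not given in the sources used here. Loci are merged exons of unannotated transcripts, free of overlap with annotated exons of their strand and internal in every transcript holding them. Of 166654 transcripts shared with GENCODE 29, 99.96% had the same exons. Symbols were matched for 60555 of 77187 annotated gene identifiers.

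Inclusion intervals are exact (Clopper-Pearson, 95%). Azacytidine was tested by Fisher's exact test per locus and by an exact binomial test per gene given TMM sizes (edgeR 4.0.16), with Benjamini-Hochberg adjustment; DESeq2 1.42.0 gave alternatives. Tools were R 4.3.3 and SciPy 1.17.1. On simulated data with 20 of 94 loci changed by 40 points between the knockdown and both libraries, 15 were recovered with 1 false call. With 200 of 8145 genes changed by 4-fold between azacytidine and control, 178 were recovered with 7 false calls. Simulated counts were binomial for loci and Poisson for genes, with no variation between libraries. The false calls therefore do not measure error in these data. The 40 points also exceed the azacytidine differences of the 4 exons within the knockdown, 6.43 to 31.0 points. Genes were named by rule: the 4, TARDBP, the 5 other genes with the highest smaller knockdown difference, and listed genes with a tested internal locus. Reference tables used here held no genome sequence, so the bases of the cryptic exons, the splice dinucleotides and UG content were not read, although planned. The knockdown values of the decay factors are not reported here.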

Additional observations from a re-analysis of the deposited data

Results flagged for a closer look

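The knockdown ratio of gene level had opposite signs without and with azacytidine in 3 of the 4 genes, beside 42.8% of all 8145 genes tested. It was -0.24 and 0.11 in HDGFL2, where both intervals hold 0, 0.65 and -0.48 in EPB41L4A, and 0.11 and -0.30 in SEPTIN11, all on the log2 scale. Scaled to total counts, SEPTIN11 had the same sign in both (-0.12 and -0.36), as it had with unique reads (0.57 and 0.60). With 1 library per group the difference between backgrounds was not tested.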

How the results depend on the processing

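No paired analysis was possible because each group has 1 library and all share 1 replicate number; the additive models hold the guide as a term. All 31 alternative values of the knockdown difference in inclusion of the 4 exons were higher with the knockdown, a direction that the choice of the genes favoured. They reuse the same libraries. Counting only the junction of the neighbouring exons as skipping repeated the reported values in HDGFL2, EPB41L4A and UBASH3B. A further 1 had no value, HDGFL2 without azacytidine from unique reads. Of the 31, 3 lay outside the interval of the reported value, all in HDGFL2 and on at most 12 reads in a library. These were 66.7 points from full-length reads, and with azacytidine 83.3 from unique and 25 from full-length reads. Azacytidine calls among loci without the knockdown numbered 0 with unique reads and 13 with counts as deposited, against 1; with the knockdown they numbered 1 with unique reads, 1 with full-length reads and 17 as deposited, against 5. Summing the transcript table, summing unique reads and a minimum mean of 5 reads gave 209, 137 and 2350 genes past the fold with the knockdown alone (743), 441, 305 and 2986 within azacytidine (1029), 501, 233 and 2284 azacytidine calls without the knockdown (1351), and 1027, 450 and 3515 with it (2152). Genes called with azacytidine in both pairs numbered 798; additive models, which fit 1 azacytidine effect over the 4 libraries, called 835 (edgeR) and 274 (DESeq2). With the knockdown alone 72.4% of the genes past the fold were higher under TMM, 42.2% under total counts (all-gene median -0.04) and 59.3% under DESeq2 size factors; for azacytidine within the knockdown 36.2% became 50.0% under total counts. Member gene ratios that changed sign were SEPTIN11 with the knockdown (-0.12, total counts; within azacytidine 0.60, unique reads), UBASH3B with the knockdown within azacytidine (-0.14, transcript sum), SEPTIN11 with azacytidine (-0.12, transcript sum; -0.61, unique reads), UBASH3B with azacytidine (0.11, transcript sum) and EPB41L4A with azacytidine within the knockdown (-0.12, transcript sum). UBASH3B inclusion with azacytidine passed within the knockdown with counts as deposited (adjusted exact p = 0.00201), where each read counts as 2. The cause of these changes was not tested. Depth limits HDGFL2, EPB41L4A and UBASH3B most, with 20 to 48 informative reads per library.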
